A study of Mus musculus with 8 samples.

Results

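The 10 Wnt pathway genes described here are Wnt4, Wnt5b, Ctnnb1, Axin2, Lef1, Kremen1, Kremen2, Dkk3, Sfrp1 and Fzd6, taken by gene symbol from the count matrices of 8 single-cell libraries of mouse thymic epithelial cells (TEC). They are 10 of the 27514 genes that the gene lists of all 8 matrices share. Wild-type mice (WT, strain C57 B6 (CD45.2)) gave every library, and all sorts took live (DAPI-), EpCAM+ CD45- thymus cells. E13.5 TEC is 1 library of that sort with no Ly51 or UEA-1 gate. Cortical TEC (cTEC; Ly51+ UEA-1-) gave 1 library each at E15.5, E17.5 and in the newborn (NB, first days of life), and 2 libraries in the adult (several weeks of age). Medullary TEC (mTEC; Ly51- UEA-1+) gave 2 adult libraries. By the study's methods the libraries fall into data set 1 (E13.5, E15.5, NB and replicate 1 of each adult group) and data set 2 (E17.5 and replicate 2 of each adult group). No label says which mice gave which library or how many were pooled, so p-values measure the spread between these libraries, which may be technical.

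Wnt ligands are secreted lipid-modified proteins that bind Frizzled receptors and LRP co-receptors. In the canonical branch this stops the degradation of beta-catenin, which then enters the nucleus and works with TCF and LEF proteins, and secreted or membrane inhibitors of the SFRP, DKK and Kremen families hold the signal down. In the thymus, Wnt4 is known as a ligand made by the epithelium and as a factor that favours expression of Foxn1, the transcription factor that TEC depend on.

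The libraries held 28334 cells, of which 25750 passed limits on mitochondrial and detected genes and 25267 were called epithelial-like after clusters that met the marker rule for another cell type were left out. Some clusters that were kept are still led by genes of endothelial cells, macrophages or mesenchyme. Between 493 (adult cTEC replicate 1) and 8309 (E17.5 cTEC) epithelial-like cells remained per library, with 2158499 to 89446662 unique molecular identifiers (UMIs, counted transcripts). The adult cTEC libraries were the smallest, so their intervals are the widest. Levels are CPM, the UMIs of a gene over all epithelial-like cells of a library scaled to a common total, with 95% Poisson intervals that cover counting error only. The 3' counting scale does not allow levels of different genes to be set against each other, so each gene was compared with itself. The markers Psmb11 and Aire followed the labels, while Ccl21a did so only in part. Psmb11, a cTEC proteasome subunit, was at 667 to 1475 CPM in the cTEC libraries, 250.5 in E13.5 TEC and 3.85 and 8.57 in the adult mTEC libraries. Aire, the mTEC regulator of self-antigen expression, was at 435 and 399 CPM in adult mTEC and at most 9.27 elsewhere. Adult cTEC replicate 1 also carried Ccl21a, a chemokine of immature mTEC, at 5398 CPM, against 915 in replicate 2. Adult mTEC replicates 1 and 2 were at 6443 and 2893 CPM. No UMI of Psmb11 or of Prss16, another cTEC gene, was held by 167 of 493 and 108 of 517 adult cTEC in replicates 1 and 2. Summed mesenchymal markers were at 510 and 331 CPM in adult cTEC, against 99.7 and 69.1 in adult mTEC. Pairs of libraries shared at most 84 cell barcodes.

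Promoter windows (250 bases before to 50 after the transcript start, RefSeq, GRCm38.p6) were at hand for 6 of the 10 genes, in 12 windows. The windows of Wnt4 and Kremen2 are shown because these genes differed most between the adult lineages, and that of Axin2 because it is the textbook target gene of beta-catenin. Wnt4 is at chr4:137277385-137277684 on the + strand, Kremen2 at chr17:23745780-23746079 on the - strand and Axin2 at chr11:108920099-108920398 on the + strand. Capitals mark GACGC, the core bound by FOXN1, on either strand.
Wnt4: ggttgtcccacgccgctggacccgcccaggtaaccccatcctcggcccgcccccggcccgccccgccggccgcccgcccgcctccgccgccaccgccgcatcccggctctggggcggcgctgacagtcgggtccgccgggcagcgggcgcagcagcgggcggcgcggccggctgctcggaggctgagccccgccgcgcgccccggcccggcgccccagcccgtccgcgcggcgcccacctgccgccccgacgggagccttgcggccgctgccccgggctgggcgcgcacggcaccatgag
Kremen2: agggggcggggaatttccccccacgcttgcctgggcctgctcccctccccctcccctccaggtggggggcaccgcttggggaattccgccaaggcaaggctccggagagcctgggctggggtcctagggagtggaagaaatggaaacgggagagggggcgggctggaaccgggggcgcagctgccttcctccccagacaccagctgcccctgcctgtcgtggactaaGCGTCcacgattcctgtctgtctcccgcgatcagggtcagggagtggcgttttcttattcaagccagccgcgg
Axin2: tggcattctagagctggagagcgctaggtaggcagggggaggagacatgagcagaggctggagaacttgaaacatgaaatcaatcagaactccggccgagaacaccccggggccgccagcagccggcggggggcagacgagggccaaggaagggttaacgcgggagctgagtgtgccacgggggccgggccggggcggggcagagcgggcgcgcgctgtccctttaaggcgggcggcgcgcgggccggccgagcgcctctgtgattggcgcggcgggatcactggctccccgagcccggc
GACGC was found once in the Kremen2 window and not in those of Wnt4 and Axin2. It was in 6 of the 12 windows and in 4 of the 6 genes (Wnt5b, Ctnnb1, Lef1 and Kremen2), some with overlapping windows, against 27.2% of 32851 windows of the same length. The TCF/LEF forms CTTTGAT and CTTTGAA, which do not overlap GACGC, were in 1 of the 12 windows (CTTTGAT, Wnt5b) and in none, against 3.73% and 5.14% of all windows. A match describes letters and not a bound site.

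Among the ligands, Wnt4 (ENSMUSG00000036856, chr4:137277489-137299726, + strand) was at 72.2 CPM in E13.5 TEC, 141 in E15.5 cTEC, 415 in E17.5 cTEC, 169 in NB cTEC, and 151.5 and 502 in adult cTEC replicates 1 and 2. Adult mTEC were at 34.6 and 121 CPM. Within each data set adult cTEC lay above adult mTEC, by 4.37 times (95% counting interval 3.805 to 5.016) in data set 1 and by 4.15 times (3.95 to 4.36) in data set 2. The data sets differed nearly as much as the lineages, and data set 2 exceeded data set 1 by 3.32 times (2.95 to 3.74) in adult cTEC and by 3.49 times (3.207 to 3.805) in adult mTEC. Of 4010 genes with at least 20 CPM in the 4 adult libraries, 13 (0.324%) were at least 2.5-fold higher in data set 2 in both adult groups, while the median ratio was 1.01 in cTEC and 0.917 in mTEC. The high value of E17.5 cTEC, the only fetal library of data set 2, therefore cannot be told apart from the data set. The matrices of data set 2 were made with a later software release and a longer gene list, and whether Wnt4 was counted against the same gene model in both data sets was not tested. Inside data set 1, E15.5 was at 1.95 times (1.82 to 2.10) the E13.5 level, NB at 1.20 times (1.15 to 1.25) the E15.5 level, and adult cTEC at 0.896 times (0.798 to 1.003) the NB level. In data set 2 adult cTEC stood at 1.21 times (1.16 to 1.27) the E17.5 level. Single libraries at each age give these ratios no replicate error. Between E13.5 and E15.5 the sort gate changed as well, so age and gate cannot be told apart there.

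**Figure D1:**
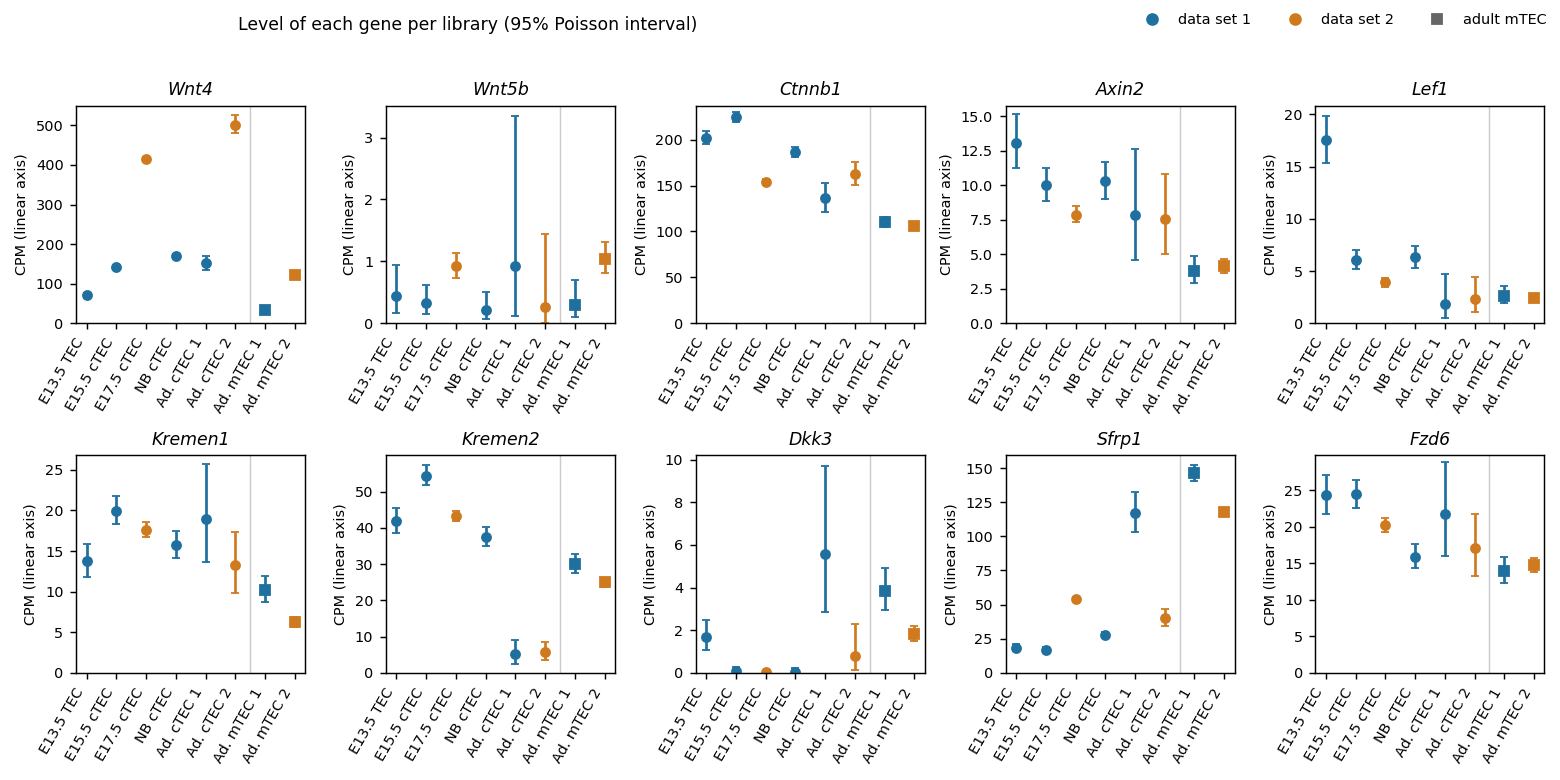
Level of each of the 10 genes in every library, in CPM on a linear axis that starts at 0 and has its own range per gene. Points are libraries with 95% Poisson intervals, colours are the data sets and squares are adult mTEC. For Wnt4 the 3 libraries of data set 2 lie above the data set 1 library of the same group or of the neighbouring ages, and for Kremen2 both adult cTEC libraries, at 5.10 and 5.71 CPM, lie below the other 6.

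The share of cells with a Wnt4 UMI was likewise higher in adult cTEC than in adult mTEC of the same data set. To compare shares at equal depth, each cell was thinned to 3000 UMIs and shallower cells were left out (9 to 212 per library, 152 of them from adult cTEC replicate 1). At that depth 35.8% and 66.0% of adult cTEC and 11.1% and 28.0% of adult mTEC held a Wnt4 UMI. E13.5 TEC were at 21.0%, E15.5 cTEC at 34.2%, E17.5 cTEC at 69.2% and NB cTEC at 38.6%. Without thinning the shares were 43.6% and 83.4% in adult cTEC, 27.8% and 57.7% in adult mTEC and 94.5% in E17.5 cTEC. Adult cTEC replicate 2 thus had a higher level than E17.5 cTEC but no higher share, and no order of these libraries is read from the shares. Parathyroid-like cells, which arise beside the thymus from the same pouch and were sorted with E13.5 TEC, gave the background: 1.85% of the 108 that reached 3000 UMIs held a Wnt4 UMI, at a median depth of 4256 UMIs before thinning, against 7281 in E13.5 TEC. The 166 thymocyte-like NB cells were at 39.2%, close to the NB cTEC share, and Wnt4 was at 179 CPM in them. Thymocyte-like cells of adult cTEC replicates 1 and 2 were at 36.4% of 11 and 72.2% of 18 cells. The parathyroid-like background comes from E13.5 TEC, and none was measured in the adult libraries.

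Wnt5b (ENSMUSG00000030170, chr6:119432531-119544347, - strand), a ligand of the non-canonical branch, was close to the limit of detection in TEC. Its level was 0.434 CPM in E13.5 TEC, 0.328 in E15.5 cTEC, 0.917 in E17.5 cTEC and 0.216 in NB cTEC. Adult cTEC were at 0.927 (2 UMIs) and 0.260 CPM (1 UMI), adult mTEC at 0.301 and 1.04. At 3000 UMIs at most 0.587% of the epithelial-like cells of a library held a UMI. In the E13.5 parathyroid-like cells, which no comparison used, it was at 72.0 CPM (42 UMIs), and 18.5% of them held a UMI at 3000 UMIs. E17.5 cTEC lay above E15.5 and NB cTEC, and adult mTEC replicate 2 above replicate 1, with counting intervals that did not overlap, and both higher libraries belong to data set 2.

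Of the receptors, Fzd6 (ENSMUSG00000022297, chr15:39006034-39038188, + strand) is a Frizzled receptor known from planar polarity. Its CPM were 24.3, 24.5, 20.3 and 15.9 from E13.5 to NB, 21.8 and 17.1 in adult cTEC and 14.0 and 14.8 in adult mTEC. Both adult mTEC libraries lay below the E13.5 TEC and all cTEC libraries, and NB cTEC was the nearest of those.

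Kremen1 and Kremen2 are transmembrane receptors that bind DKK proteins and remove LRP co-receptors from the surface. Kremen2 (ENSMUSG00000040680, chr17:23741197-23745833, - strand) set adult cTEC apart from all other libraries. It was at 41.8 CPM in E13.5 TEC, 54.4 in E15.5 cTEC, 43.2 in E17.5 cTEC and 37.6 in NB cTEC, but at 5.10 (11 UMIs) and 5.71 CPM (22 UMIs) in adult cTEC. Adult mTEC were at 30.1 and 25.01 CPM. In data set 1 the NB level was 7.37 times (4.10 to 14.8) the adult cTEC level, and in data set 2 the E17.5 level was 7.56 times (4.99 to 12.1) it. At 3000 UMIs, 9.58% to 14.5% of fetal and NB cells, 0.880% and 1.83% of adult cTEC and 8.50% and 6.01% of adult mTEC held a Kremen2 UMI, and 0.926% (1 of 108, 0.0234% to 5.05%) of E13.5 parathyroid-like cells did. These are cells of another library, and no such share was measured in the adult libraries. Unthinned, adult cTEC were at 2.03% and 3.87%.

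In cells with a low proliferation score Kremen2 was at 56.9 CPM in E15.5 cTEC, 42.1 in E17.5 cTEC and 36.1 in NB cTEC, against 5.24 and 5.98 in adult cTEC. In E13.5 TEC it was at 69.7 CPM (59.5 to 81.2) in the cells with a low score and at 36.0 CPM (32.6 to 39.7) in those with a high score. Cells of the adult cTEC libraries with a Psmb11 or Prss16 UMI, the 2 cTEC genes used to mark cortical cells, were at 6.21 and 6.40 CPM. Summed cycling markers moved with age too, from 1743 CPM in E13.5 TEC and 394 in NB cTEC to 110 and 184 in adult cTEC. Depth per cell was also lowest in adult cTEC replicate 1, with a median of 3920 UMIs against 6013 in NB cTEC.

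Kremen1 (ENSMUSG00000020393, chr11:5191552-5261558, - strand) did not share this course. Its CPM were 13.8, 19.99, 17.7 and 15.8 from E13.5 to NB, 19.0 and 13.2 in adult cTEC and 10.2 and 6.28 in adult mTEC. The adult lineages did not overlap, with cTEC at 1.86 times mTEC (1.29 to 2.62) in data set 1 and 2.11 times (1.54 to 2.82) in data set 2.

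Of the secreted modulators, Sfrp1 (ENSMUSG00000031548, chr8:23411502-23449632, + strand) binds Wnt ligands outside the cell. It was at 18.5 CPM in E13.5 TEC, 17.1 in E15.5 cTEC, 54.2 in E17.5 cTEC and 28.1 in NB cTEC. Adult cTEC were at 117 and 40.2 CPM and adult mTEC at 146.5 and 118. Adult cTEC replicate 1 lay close to adult mTEC replicate 2, and replicate 2 lay below E17.5 cTEC of its own data set, at 0.743 times (0.629 to 0.872) that level. In data set 1, in contrast, adult cTEC stood at 4.18 times (3.599 to 4.839) the NB level. The age courses of the 2 data sets thus ran in opposite directions after E17.5 and NB. Summed markers of immature mTEC (mTEC I list: Ccl21a, Krt5, Krt14, Itga6, Pdpn and Itgb4, none at 0 in any library) moved with Sfrp1 across the adult libraries. They stood at 6297 and 1495 CPM in adult cTEC, 8375 and 4022 in adult mTEC and 246 to 948 before adulthood. In adult cTEC replicate 1, cells with a Psmb11 or Prss16 UMI held Sfrp1 at 132 CPM (115 to 151) and those without at 72.85 CPM (52.0 to 99.2), and in replicate 2 the values were 39.9 and 42.1 CPM.

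**Figure D2:**
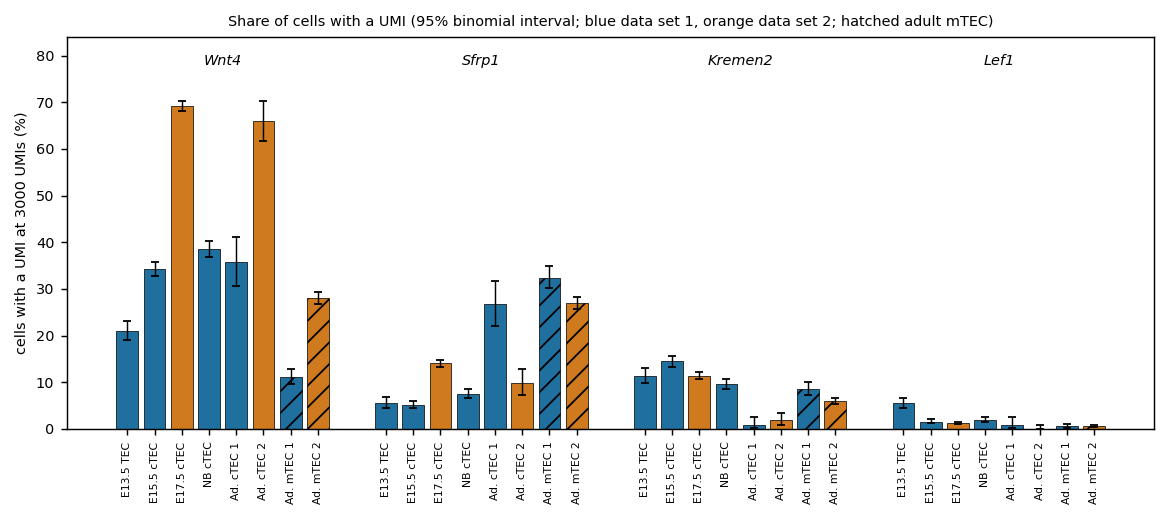
Percentage of epithelial-like cells with a UMI of Wnt4, Sfrp1, Kremen2 and Lef1 after thinning to 3000 UMIs per cell, with 95% exact binomial intervals. Blue is data set 1, orange data set 2 and hatching adult mTEC. Kremen2 is at 0.880% and 1.83% in adult cTEC and at 6.01% or above elsewhere, and Lef1 is highest in E13.5 TEC at 5.48%.

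Dkk3 (ENSMUSG00000030772, chr7:112116017-112159057, - strand), a divergent member of the Dickkopf family, was found at 1.67 CPM in E13.5 TEC (23 UMIs) and then at 0.0728, 0.0335 and 0.0432 CPM in E15.5, E17.5 and NB cTEC, on 2, 3 and 1 UMIs. Adult cTEC were at 5.56 (12 UMIs) and 0.779 CPM (3 UMIs) and adult mTEC at 3.85 and 1.83. In adult cTEC replicate 1, cells with a Psmb11 or Prss16 UMI were at 2.48 CPM (4 UMIs) and those without at 14.6 CPM (8 UMIs). In replicate 2, cells with such a UMI held no Dkk3 UMI and those without were at 5.26 CPM, on 3 UMIs.

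Inside the cell, Ctnnb1 (ENSMUSG00000006932, chr9:120929216-120960507, + strand), which encodes beta-catenin, was at 202, 225, 154 and 186 CPM from E13.5 to NB. Adult cTEC were at 136 and 163 CPM and adult mTEC at 110 and 106, below the E13.5 TEC and all cTEC libraries. At 3000 UMIs 28.1% to 48.6% of cells held a UMI, with the lowest share in adult mTEC and the highest in E15.5 cTEC, but 46.3% of parathyroid-like cells held it as well.

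Axin2 (ENSMUSG00000000142, chr11:108920349-108950783, + strand), a scaffold of the destruction complex that canonical signalling induces, was at 13.1 CPM in E13.5 TEC, 10.0 in E15.5, 7.88 in E17.5 and 10.3 in NB cTEC. Adult cTEC were at 7.88 (17 UMIs) and 7.53 CPM (29 UMIs) and adult mTEC at 3.79 and 4.13. The cTEC to mTEC ratio was 2.08 (1.140 to 3.596) in data set 1 and 1.82 (1.20 to 2.68) in data set 2, both above 1 by counting error. At 3000 UMIs 1.08% to 3.79% of cells held a UMI. In parathyroid-like cells of E13.5 TEC the share was 6.48% (7 of 108 cells, 2.65% to 12.9%) and the level 18.9 CPM, so these cells do not give a background for Axin2.

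Lef1 (ENSMUSG00000027985, chr3:131110471-131224356, + strand), the nuclear partner of beta-catenin, was at 17.52 CPM in E13.5 TEC and at 6.04, 3.91 and 6.31 in E15.5, E17.5 and NB cTEC. Adult cTEC were at 1.85 (4 UMIs) and 2.34 CPM (9 UMIs), and adult mTEC at 2.65 and 2.42. The E13.5 level was 2.90 times (2.37 to 3.55) the E15.5 level, and all 3 later fetal and NB libraries lay above all 4 adult ones. E13.5 TEC had no Ly51 or UEA-1 gate, so age and sort cannot be told apart at the first step. Parathyroid-like cells held none in 108 cells at 3000 UMIs, which allows a share of up to 2.78%. T-lineage cells also make Lef1, and in thymocyte-like cells it was at 82.5 CPM in the NB library. Those cells also held Wnt4 at 178.6 CPM, about the level of the epithelial-like cells there. Thymocyte markers in the epithelial-like cells summed to 5.94 to 48.2 CPM and were higher in the adult libraries (31.9 to 48.2 CPM) than before (5.94 to 14.8 CPM), and between none and 7 of the 12 markers were at 0. Their part in the Lef1 values was not tested.

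To ask whether the genes changed with age beyond the spread between libraries, a slope per stage from E13.5 to adult was fitted over the 6 libraries of ungated E13.5 TEC and of cTEC with a term for the data set, in edgeR across 14255 genes. None of the 10 genes passed an adjusted p of 0.05, against a background of 8.43% of all genes tested (5.22% higher and 3.21% lower with age). At an unadjusted edgeR p under 0.05 there were 2 of 10, Lef1 and Sfrp1, against 28.1% of all genes tested. DESeq2 called 2 of 10, Lef1 (adjusted p = 0.0381) and Kremen2 (adjusted p = 0.0311), against 20.8% of all genes, so neither count of members stands above its background. Lef1 had a slope of -0.54 log2 units per stage (SE 0.16, edgeR adjusted p = 0.0893), Kremen2 of -0.67 (SE 0.29, adjusted p = 0.187) and Sfrp1 of 0.51 (SE 0.19, adjusted p = 0.137). The slope of Wnt4 was 0.21 (SE 0.11, edgeR adjusted p = 0.284). Slopes of Axin2, Ctnnb1 and Fzd6 were between -0.12 and -0.10, and those of Dkk3 (0.55, SE 0.53), Wnt5b and Kremen1 were within 1.1 SE of 0. The median over the 10 genes was -0.081, against -0.00126 over all genes. A straight slope describes Kremen2 poorly, since its levels before adulthood lay between 37.6 and 54.4 CPM. Every slope also includes the change from the ungated E13.5 sort to the cTEC gate.

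**Figure D3:**
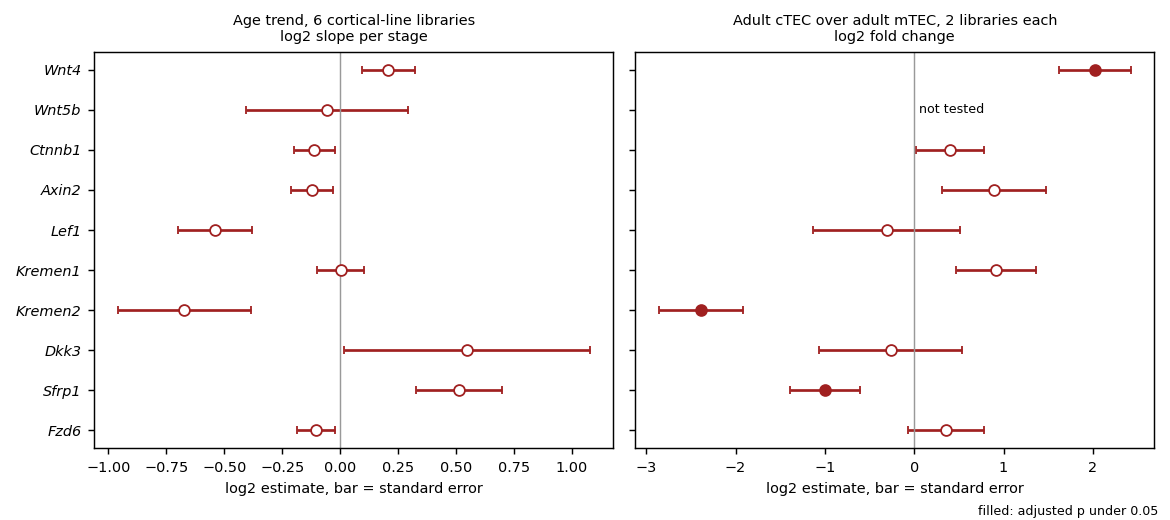
Left, log2 slope per stage over the 6 libraries of E13.5 TEC and cTEC; right, log2 fold change of adult cTEC over adult mTEC. Points are edgeR estimates with their standard errors, and filled points have an adjusted p under 0.05: none on the left, and Wnt4, Kremen2 and Sfrp1 on the right, where Wnt5b was not tested.

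The comparison of adult cTEC with adult mTEC asked which of these genes tell the lineages apart, with 2 libraries a group and the data set as a term. Wnt4 was higher in cTEC by 2.03 log2 units (SE 0.40, edgeR adjusted p = 4.84e-06) and Kremen2 lower by -2.39 (SE 0.47, adjusted p = 5.05e-06). Sfrp1 was lower in cTEC by -0.997 (SE 0.39, edgeR adjusted p = 0.0345). These are 3 of 9 genes tested, 1 higher and 2 lower, while 33.5% of all 15608 genes tested passed, 11.7% higher and 21.8% lower, so the share called is that of the background. Kremen1 (0.92, SE 0.45, adjusted p = 0.101), Axin2 (0.89, SE 0.58, adjusted p = 0.244) and Ctnnb1 (0.40, SE 0.38, adjusted p = 0.465) did not pass in edgeR, nor did Fzd6, Lef1 and Dkk3. The median of the 9 estimates was 0.354, against -0.142 over all genes. The call for Wnt4 needs the data set term: without it the estimate was 2.04 with an edgeR adjusted p of 0.132, and that of Sfrp1 had an adjusted p of 0.234, while Kremen2 kept an adjusted p of 0.0104. Sfrp1 also missed the threshold in DESeq2 (-1.01, adjusted p = 0.108), which called 16.5% of all genes. In edgeR it missed the threshold when the adult cTEC libraries, but not the mTEC libraries, were limited to cells with a Psmb11 or Prss16 UMI (-0.93, adjusted p = 0.110), and in the cells with a low proliferation score (-0.91, adjusted p = 0.0606) or without a thymocyte marker UMI (-1.003, adjusted p = 0.0596). The estimates in these 4 settings stayed within 1 SE of the reported one. As group means, Wnt4 was at 327 CPM ± 248 (SD, n = 2) in cTEC and 77.8 ± 61.0 in mTEC, Kremen2 at 5.40 ± 0.434 and 27.6 ± 3.58, and Sfrp1 at 78.7 ± 54.4 and 132 ± 20.5.

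Within the adult mTEC libraries the genes were unevenly spread over clusters, which were made without the Wnt genes. Clusters of at least 50 cells are described. In replicate 2, Wnt4 was at 255 CPM in mTEC I-like cells (led by Ccl11 and Mgp) and at 248 in a cluster led by Ccl21a and Matn1, against 18.8 in microfold-like and 49.1 in tuft-like (mTEC IV) cells. Sfrp1 followed the same clusters, at 256 and 234 CPM, and was at 28.3 to 116 CPM in the others. Kremen2 was highest in the Ccl21a-led cluster (62.3 CPM) and the cycling cluster (38.8 CPM). Kremen1 (16.6 and 19.1 CPM) was highest in mTEC I-like and in mTEC III-like cells, the keratinised type, and Ctnnb1 peaked at 236 CPM in a cluster led by Guca2b and Apoc3 and at 216 CPM in mTEC III-like cells. Dkk3 was at 9.28 CPM in mTEC I-like cells and at most 2.41 in the other clusters. In replicate 1 Sfrp1 was at 201 and 308 CPM in the mTEC I-like clusters and at 60.7 CPM in mTEC II-like (Aire+) cells. Wnt4 was at 58.3 and 54.1 CPM in the same mTEC I-like clusters, against 18.6 CPM in the mTEC II-like cells.

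**Figure D4:**
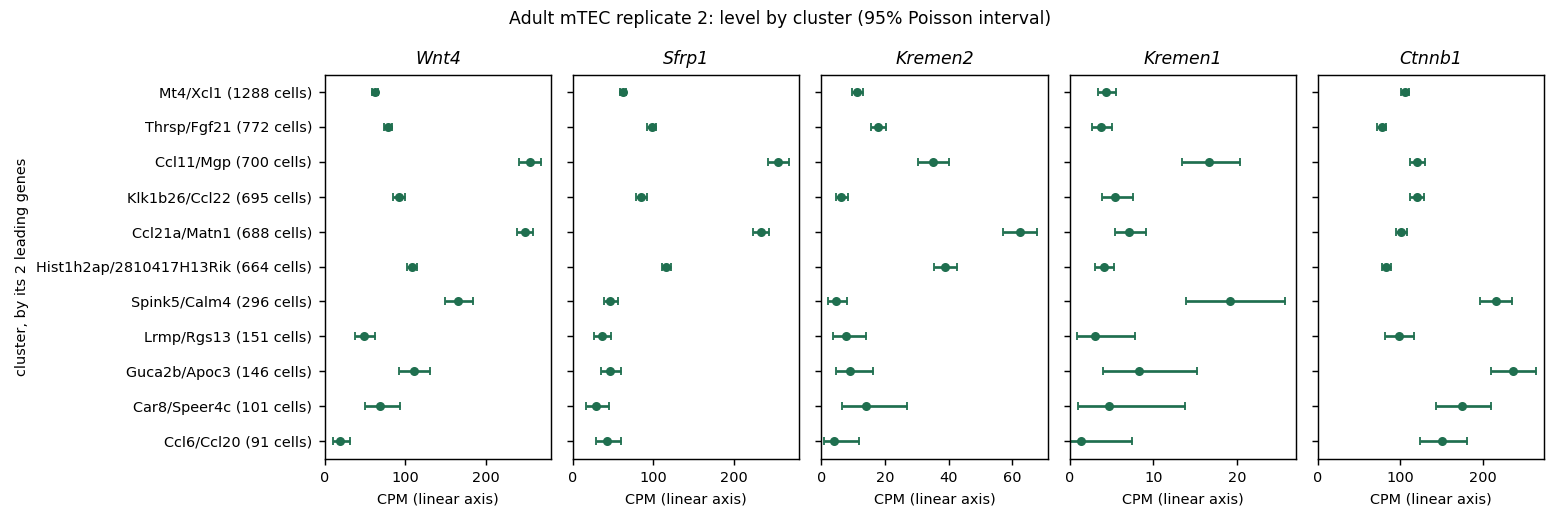
Level of 5 of the genes in the clusters of adult mTEC replicate 2 with at least 50 cells, in CPM with 95% Poisson intervals. Clusters are named by their 2 leading genes and ordered by size. Wnt4 and Sfrp1 are highest in the Ccl11/Mgp and Ccl21a/Matn1 clusters, and Ctnnb1 in the Guca2b/Apoc3 and Spink5/Calm4 clusters.

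E13.5 TEC and the cTEC libraries were uneven as well. In E13.5 TEC, Lef1 was at 30.0 CPM in the cTEC-like cluster and had no UMI in the 225 cells led by Mt1 and Krtdap, and Dkk3 was highest (9.82 CPM) in a cluster led by Dlk1, Spink8 and the mesenchymal genes Lum and Dcn. Fzd6 reached 88.3 CPM in 147 E13.5 cells led by Hoxa7 and Ntng1, which also carried Kremen2 at 85.8 CPM and Axin2 at 22.4. In E15.5 cTEC a small cluster of 62 cells led by Ccl21a and Lect1 likewise had the highest Kremen2 (116 CPM), Sfrp1 (59.4 CPM) and Fzd6 (64.8 CPM) of that library. In adult cTEC replicate 1 Sfrp1 stood at 265 CPM in the 108 cells led by Ccl21a, against 59.6 to 116 in the other clusters, which include cells led by endothelial (Flt1, Plvap) and macrophage (C1qa) genes. In adult cTEC replicate 2 Wnt4 was at 780 CPM in the cTEC-like cluster and 340 CPM in a cluster led by Gas1 and Defb1. Clusters describe cells of 1 library and were not tested.

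A list of 79 further Wnt pathway genes was read in the same fits. With age, 56 were tested and 1 passed, against the same background of 8.43%: Ctnnbip1, a protein that blocks beta-catenin from TCF proteins, fell by 0.50 log2 units per stage (SE 0.11, edgeR adjusted p = 0.0437). It was at 93.2 CPM in E13.5 TEC, 29.6 in E15.5, 65.1 in E17.5 and 25.7 in NB cTEC, 18.5 and 37.6 in adult cTEC and 99.6 and 84.2 in adult mTEC. The call was lost without the data set term (edgeR adjusted p = 0.241). The median slope of the list was -0.00486.

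Between the adult lineages 61 were tested, of which 16 (26.2%, background 11.7%) were higher and 18 (29.5%, background 21.8%) lower in cTEC. Of the 15 ligands and secretion genes tested, 2 were higher and 7 lower in cTEC, and of the 7 secreted inhibitors 6 were lower and none higher. Receptors and receptor turnover genes had 6 of 16 higher and none lower, and cytoplasmic signalling genes 4 of 11 higher and none lower. Nuclear factors had 2 higher and 3 lower of 8, and common targets 2 and 2 of 4. The median difference was 0.333 log2 units over the list, -2.23 for ligands (-1.66 with genes at 0 in cTEC set to their bound), -3.76 for inhibitors (-3.19) and 0.913 for receptors. Among the lower genes, the ligands Wnt3, Wnt8b and Wnt11 and the inhibitors Frzb, Notum and Sost failed the low-count filter of the age fit. They entered the lineage fit through adult mTEC, which fixed their direction in advance. The counts and medians of ligands and inhibitors include them and are no measure of a role.

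The 10 genes with the smallest adjusted p were led by ligands. Wnt10b was at 19.3 and 40.4 CPM in adult mTEC and, with 0 and 1 UMIs, at 0 and 0.260 in adult cTEC (edgeR adjusted p = 1.01e-18), a ratio of 156 in data set 2 (counting interval 27.9 to 6148). Wnt10a was at 70.1 and 61.9 CPM in mTEC and 4.63 and 3.63 in cTEC (edgeR adjusted p = 3.36e-15), and Wnt8b at 8.06 and 11.8 CPM in mTEC on 0 and 1 UMIs in cTEC. Nkd2, a target that feeds back on Dishevelled, was at 13.4 and 14.2 CPM in mTEC and 0.927 and 0.779 in cTEC. Tcf7, a TCF family factor that T cells also make, was at 17.1 and 21.5 CPM in mTEC and 1.85 and 2.60 in cTEC. Sfrp5, an inhibitor, was at 11.8 and 12.1 CPM in mTEC and 1.85 and 1.04 in cTEC. Sost, an LRP inhibitor best known from bone, had 452 UMIs in mTEC and none in cTEC, at least 10.8-fold higher in mTEC against a floor of 3 counts over the group. In the other direction, the receptor Fzd3 was at 16.2 and 33.0 CPM in cTEC against 3.43 and 3.83 in mTEC, the R-spondin receptor Lgr4 at 83.4 and 47.5 against 19.2 and 10.1, and the beta-catenin cofactor Pygo1 at 22.2 CPM in replicate 1 against 3.07, and on 52 UMIs in replicate 2 at 5.25 times the mTEC level (3.78 to 7.2).  Adult mTEC hold Aire+ cells, which transcribe many genes of other tissues, and the Aire level of 399 to 435 CPM moved with the mTEC-high genes; its part was not tested.

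**Figure D5:**
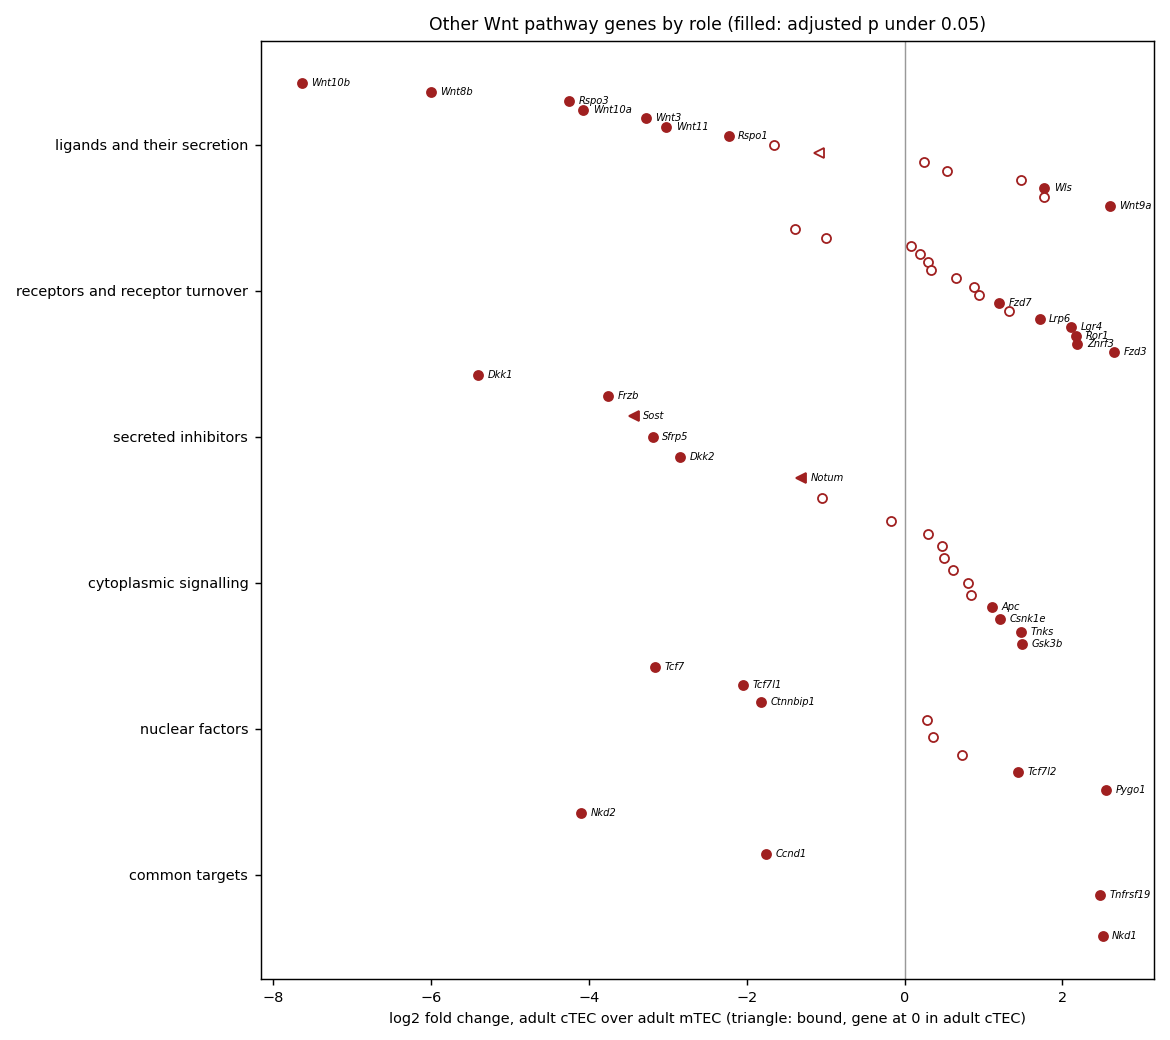
Log2 fold change of adult cTEC over adult mTEC for the 61 tested genes of the wider list, grouped by role. Filled symbols have an edgeR adjusted p under 0.05, and triangles are bounds for genes without a UMI in adult cTEC. Filled symbols lie left of 0 for all 6 called inhibitors and right of 0 for all 6 called receptor genes. The inhibitors Frzb, Notum and Sost passed the low-count filter only through adult mTEC.

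The genes whose levels ran most like each member over the 8 libraries (Pearson r of log2(CPM + 1), among genes with a mean of at least 20 CPM) are given as a description. Wnt4 was most like Tnrc6c (r = 0.982), which was at 113 CPM in E17.5 cTEC and 140 in adult cTEC replicate 2, both of data set 2, against 20.5 to 62.8 in the other 6, among them adult mTEC replicate 2 of data set 2 at 59.7. Kremen2 was most like Flywch2 (0.987) and Fem1b (0.979), and Lef1 like Zdhhc4 (0.995) and Mcm4 (0.989). Axin2 was like Epm2aip1 (0.991) and Apc (0.983), the tumour suppressor of the same complex, Kremen1 like Trp63 (0.980) and Rgma (0.968), and Sfrp1 like Ctsb (0.967) and Litaf (0.961). Ctnnb1 was nearest to Pitrm1 (0.990) and Ndufaf6 (0.987), Fzd6 to Ppwd1 (0.943) and Zmynd8 (0.939), Dkk3 to Mcmbp (0.965) and Skil (0.955), and Wnt5b to Gm10076 (0.941) and Zfp467 (0.775). The second gene for Wnt4 was Snrnp48 (0.931). All 8 points share library, depth and data set between the genes of a pair.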

How the data were processed

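Single cells of 8 sorted mouse thymus libraries were measured on the 10x Chromium v2 platform, which counts 3' ends. The authors deposited matrices of raw UMI counts per gene and cell, made with Cell Ranger. The submitters' processing notes name Cell Ranger 2.0.1, STAR 2.5.1b, bcl2fastq 2.17 and the mm10 build, while the headers of the data set 2 matrices name a later release, and their gene lists hold 31053 genes against 27998 in data set 1. Analyses used the 27514 shared genes.

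Cells over 5% mitochondrial UMIs or over 5000 genes were left out. Cells were clustered (Leiden, resolution 0.8) by data set and within libraries, without the Wnt genes among the variable genes, and clusters with at least 3 markers and over 50% of the markers of a non-epithelial type at 4-fold were left out. No doublet caller was run. Counts were summed per library and tested in edgeR 4.0.16 (R 4.3.3; quasi-likelihood, TMM, filterByExpr, Benjamini-Hochberg, threshold 0.05) with the data set, which the study's methods give, as a term. The labels number no replicates, so the numbers follow accession order. In the adult groups they coincide with the data sets, so the data set term also pairs adult cTEC and mTEC. DESeq2 1.42.0 was an alternative. In data simulated for the age trend, 197 of 200 genes changed by 1 log2 unit per stage were recovered, with 7.94% false calls, and for the lineages 162 of 200 changed by 2 log2 units, with 0.613% false. The false share of the trend exceeds the nominal level. The change simulated with age was larger than the fitted slope of any member. Recovery was not split by expression level. The recovery with age therefore does not measure the power for the members at their own slopes and levels, such as Lef1, Dkk3 and Wnt5b with few UMIs. A member that did not pass the age fit may still change with age.

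Intervals are 95% exact Poisson or binomial ones, and the limit given for a share of 0 is 3 counts of the total. The depth per library limits adult cTEC most. In the annotation, genes on the opposite strand overlap Ctnnb1, Axin2, Lef1, Kremen2, Wnt5b, Kremen1 and Fzd6, and use of strand in the counting is not given in the sources used here. Same-strand genes overlap Lef1 (Gm42449) and Ctnnb1 (Mir7090), so their reads may be split or dropped in either case. Named genes were the 10 members, pathway genes past the threshold (at most 10 per comparison by adjusted p) and the 2 genes most alike in course for each member. The members and lists were chosen with earlier results of these data known.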

Additional observations from a re-analysis of the deposited data

Results flagged for a closer look

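Cells that entered no comparison carried some of the genes above their level in the epithelial-like cells of the same library, with counting intervals that did not overlap. Wnt5b was at 72.0 CPM (51.9 to 97.3, 42 UMIs) in the 124 parathyroid-like cells of E13.5 TEC and at 10.5 CPM (7 UMIs) in its 104 thyroid-like cells, against 0.434 CPM in epithelial-like cells. The thyroid-like cells also held Ctnnb1 at 310.2 CPM against 202, Lef1 at 39.1 against 17.52 and Dkk3 at 15.1 (10 UMIs) against 1.67. In the 169 thymocyte-like cells of NB cTEC, Lef1 was at 82.5 CPM (68.8 to 98.1, 127 UMIs) against 6.31, and Kremen1 at 31.8 CPM (49 UMIs) against 15.8. These thymocyte-like cells also held Wnt4 at 178.6 CPM, against 169 in the epithelial-like cells. Whether their barcodes carry transcripts of both kinds of cell was not tested. Lef1 was also at 80.6 CPM in the thymocyte-like cells of E17.5 cTEC and at 125.5 and 53.5 CPM (10 UMIs each) in those of the adult cTEC replicates, and Wnt5b at 100.9 CPM (5 UMIs) in the parathyroid-like cells of E15.5 cTEC. The differences were not tested across libraries.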

How the results depend on the processing

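The number of genes past the threshold with age was 1201. It was 2967 in DESeq2, 538 in data set 1 alone and 13 with 3 fetal against 3 postnatal libraries. With the libraries left out in turn it ranged from 27 (without adult cTEC replicate 1) to 1240, with 325 without E15.5, 506 without E17.5 and 517 without adult cTEC replicate 2. Between the adult lineages it was 5223, against 2583 in DESeq2. With a library left out and no data set term it was 2795 and 2417 without adult cTEC replicates 1 and 2, and 2548 and 1502 without adult mTEC replicates 1 and 2. Without the data set term as a replicate block the counts were 1361 with age and 4208 between lineages, and the Wnt4, Sfrp1 and Ctnnbip1 calls were lost. The planned setting without thyroid-gene clusters equals the reported one, since those clusters were already left out. Keeping them, and clusters left out by data set only, were chosen after seeing the data.

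Kremen2 kept its lineage call in every setting. Fits with a library left out had no data set term, so the difference between data sets enters their estimates, and 1 library stood alone in a group. In them Wnt4 kept its call only without adult mTEC replicate 2 (estimate 3.23, others 0.755 to 2.67). Sfrp1 kept its call only without adult cTEC replicate 1. Directions changed for genes that passed no test. With age, Wnt5b was at 0.055 without the data set term and -0.45 to 0.106 with libraries left out. Kremen1 was at -0.0227 without the low-count filter, -0.0146 in cells without a thymocyte marker UMI, -0.0125 in cells with a Psmb11 or Prss16 UMI, -0.0977 in cells with a low proliferation score, -0.00527 without haemoglobin-rich clusters, -0.143 as fetal against postnatal and -0.128 to 0.0539 with libraries left out. Dkk3 ranged from -0.822 to 2.10. Between lineages Lef1 was at 1.23 with all deposited cells, 0.915 with no cluster left out and 0.303 with clusters left out by data set only, and Dkk3 at 0.817 without adult cTEC replicate 2 and 0.463 without adult mTEC replicate 1. Of 80 levels, 61 to 80 stayed within their interval over the selections of cells. Of 80 shares, 21 did so at 2000 UMIs and 15 unthinned, by construction of the depth. Of 110 cluster levels 107 did so at resolution 0.4.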
